A study of Mus musculus with 12 samples.

Results

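The H2 genes of the mouse, the genes of its major histocompatibility complex on chromosome 17, were followed in liver by genotype and by diet. Members were all genes whose symbol starts with H2-, pseudogene symbols ending in -ps apart, and which had a probe set annotated to exactly 1 gene. Where a gene had several such probe sets, the one with the highest mean log2 intensity over the 12 arrays was used. This gave 34 of the 22180 genes with a probe set of their own: 21 class I genes, 10 class II genes and 3 others. The 3 others were H2-K2, a class I pseudogene that is transcribed, H2-Ke6, which encodes an oxidoreductase and no histocompatibility molecule, and H2-Pb, which was left unclassed. RefSeq also lists H2-Q5, H2-Bl and H2-T10, counted here with class I by symbol, as transcribed pseudogenes. The same holds for H2-Ea, counted with class II. RefSeq placed 33 of the members on chromosome 17; H2-Pb was not matched.

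RNA of whole liver was hybridised to 12 Affymetrix Mouse Gene 2.0 ST arrays in 4 groups of 3: null mice on the ethanol diet, null mice on the control diet, wild-type mice on the ethanol diet and wild-type mice on the control diet. Null mice lack Ppard, which encodes PPARβ/δ, a nuclear receptor that senses fatty acids, and the deletion is not restricted to 1 cell type in the labels. All mice were males of C57BL/6 background, aged 8 to 10 weeks, and received liquid diet, with 4% (v/v) ethanol in the ethanol groups, for 16 weeks. The labels do not say whether the 3 arrays of a group are separate mice, so p-values measure only the spread between these arrays.

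Class I molecules sit on nearly every cell and present peptides made inside it to CD8 T cells. The classical class Ia gene H2-K1 is the highly variable kind, whereas the class Ib genes of the Q, T and M regions have narrower roles. Class II molecules are pairs of an alpha and a beta chain that present peptides taken up from outside to CD4 T cells. They are made mainly by dendritic cells, B cells and macrophages, and in liver also by Kupffer cells, its resident macrophages. Hepatocytes, the bulk of the organ, express class I and little class II.

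The letters upstream of 4 members with contrasting results are given first, since promoters of the 2 classes are known to answer to different coactivators. H2-Aa and H2-Eb1 stand for class II, H2-K1 for class Ia and H2-Q10 for the Q region. Each sequence is the 250 bases directly upstream of the gene's annotated start in RefSeq's table for GRCm38.p6, and so lies outside the annotated transcript. It is read 5′ to 3′ in the direction of the gene, and capitals mark motif letters. For H2-K1 the table holds 2 starts, and the first is shown.
H2-Aa, chr17:34287824-34288073, minus strand: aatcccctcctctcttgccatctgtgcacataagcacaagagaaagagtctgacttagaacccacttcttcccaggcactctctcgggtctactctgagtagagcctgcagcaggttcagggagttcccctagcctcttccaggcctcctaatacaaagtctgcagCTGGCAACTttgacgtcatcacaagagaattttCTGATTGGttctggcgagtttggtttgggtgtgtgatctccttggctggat
H2-Eb1, chr17:34305617-34305866, plus strand: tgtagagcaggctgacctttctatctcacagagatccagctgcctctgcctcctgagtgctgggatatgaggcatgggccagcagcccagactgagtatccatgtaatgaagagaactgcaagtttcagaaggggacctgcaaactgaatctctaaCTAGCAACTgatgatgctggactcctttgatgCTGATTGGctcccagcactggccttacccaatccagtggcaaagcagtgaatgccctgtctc
H2-K1, chr17:34000348-34000597, minus strand: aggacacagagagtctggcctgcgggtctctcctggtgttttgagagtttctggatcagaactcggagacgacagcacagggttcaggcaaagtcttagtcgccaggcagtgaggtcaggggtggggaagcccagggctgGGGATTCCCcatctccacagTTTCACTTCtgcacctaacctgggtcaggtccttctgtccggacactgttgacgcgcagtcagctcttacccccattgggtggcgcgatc
H2-Q10, chr17:35469839-35470088, plus strand: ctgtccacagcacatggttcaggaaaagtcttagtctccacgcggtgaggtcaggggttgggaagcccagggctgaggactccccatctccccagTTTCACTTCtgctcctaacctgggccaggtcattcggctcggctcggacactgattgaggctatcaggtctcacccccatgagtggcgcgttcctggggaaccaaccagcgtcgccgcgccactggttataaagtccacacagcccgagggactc

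Motif letters were searched on both strands, and none of the matches in these 4 sequences overlapped. The class II sequences carried CTNGCAACT, the letters their X boxes share, followed closer to the start by CTGATTGG, a form of the Y box. X and Y boxes are where the RFX and NF-Y proteins sit, on which the coactivator CIITA acts at class II genes and NLRC5 at class I genes. CTNGCAACT was chosen after reading these 2 sequences and stood in 0.779% of 32851 promoter windows of the same length. CTGATTGG stood in 3.83% of those windows and in 13 of the 25 H2 genes with an entry, among them H2-Oa, H2-T23 and most H2-M10 genes. H2-K1 carried GGGATTCCC, a form of the NF-κB site called enhancer A, found in 0.301% of the windows. H2-K1 and H2-Q10 both carried TTTCACTTC, a form of the interferon-stimulated response element, found in 0.402% of the windows and also upstream of H2-Q4 and H2-M3. A match is a description of letters, and binding was not measured.

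Values are log2 of the authors' normalised intensity, and a change is the difference between group means on that scale with its standard error. A gene entered the test if it lay above the 40th percentile of its array (log2 intensities of 5.61 to 5.71) on at least 3 arrays. It was called at a limma adjusted p under 0.05 over the 14031 genes tested. Of the 34 H2 genes, 18 passed this filter: 9 class I genes, 7 class II genes, H2-K2 and H2-Ke6. The other 16 were dim, with means of 3.81 to 5.37, and took in 10 of the 12 H2-M genes, H2-T10 and H2-Bl. The dim class II genes were H2-DMb1, H2-Eb2 and H2-Ea, the alpha chain gene that is inactive in mice of C57BL/6 background. Probe sets of different genes bind with different strength, so levels are compared only within a gene.

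Some facts of the arrays bear on all values. The targeted gene Ppard had log2 intensities of 7.69 to 8.06 on null arrays and of 7.64 to 8.01 on wild-type arrays. The labels do not place these probes inside or outside the disrupted stretch, so Ppard does not check the genotypes. Array medians lay between 5.55 and 5.62. Wild-type control array 2 stood apart in interferon-stimulated genes, with a list median of 8.67 against 7.60 and 7.66 on the other 2 arrays of its group. Wild-type control array 3 was low in class II genes. No slide or scan date was at hand, so batches were not tested.

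The genotype comparison over both diets asked which H2 transcripts differ in liver without PPARβ/δ. The classical class II genes H2-Aa, H2-Ab1 and H2-Eb1 fell by a factor of 1.62 to 1.91 in null livers. No class I gene was called, and H2-K1 changed by -0.06. Of the 18 H2 genes tested, 3 were called, all lower, while 7.0% of all genes tested were called and 3.98% were called lower. An unadjusted p under 0.05 was reached by 4 of the 18, against 21.4% of all genes.

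H2-Aa encodes the alpha chain of the classical class II molecule I-A. Its log2 intensity was 7.08, 7.42 and 7.60 on the null ethanol arrays and 7.68, 7.72 and 7.58 on the null control arrays, against 8.23, 8.52 and 8.76 on the wild-type ethanol arrays and 8.73, 8.81 and 7.66 on the wild-type control arrays. All 6 null arrays lay below every wild-type array except wild-type control array 3, which fell among the null control arrays. The change was -0.93 ± 0.18 (95% confidence interval -1.32 to -0.55, 1.91-fold lower, limma adjusted p = 0.00694).

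H2-Ab1 encodes the beta chain that pairs with the H2-Aa product. It read 8.11, 8.75 and 8.78 on the null ethanol arrays and 8.72, 8.75 and 8.62 on the null control arrays, against 9.12, 9.31 and 9.62 on the wild-type ethanol arrays and 9.77, 10.18 and 8.90 on the wild-type control arrays. The 2 genotypes did not overlap, which held in the lower direction for 2.11% of all genes, and wild-type control array 3 was again the lowest wild-type array. The change was -0.86 ± 0.19 (95% confidence interval -1.27 to -0.45, 1.81-fold lower, limma adjusted p = 0.0155).

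H2-Eb1 encodes the beta chain of the second classical molecule, I-E, which lacks its partner chain in this strain. Its values were 7.40, 8.09 and 8.04 on the null ethanol arrays and 8.05, 8.10 and 7.91 on the null control arrays, against 8.34, 8.65 and 8.67 on the wild-type ethanol arrays and 8.77, 9.31 and 8.04 on the wild-type control arrays. Here too wild-type control array 3 lay within the null range, and the other 5 wild-type arrays lay above it. The change was -0.70 ± 0.18 (95% confidence interval -1.09 to -0.30, 1.62-fold lower, limma adjusted p = 0.0381). The H2-Eb1 call was lost without wild-type control array 1, wild-type ethanol array 2 or 3, any 1 of the null control arrays or null ethanol array 1, with adjusted p of 0.0571 to 0.0888, and also with no filter (0.0683) and with trended robust eBayes (0.0589). H2-Aa and H2-Ab1 stayed called whichever array was left out, and without wild-type control array 3 their changes were -1.12 and -1.04.

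**Figure D1:**
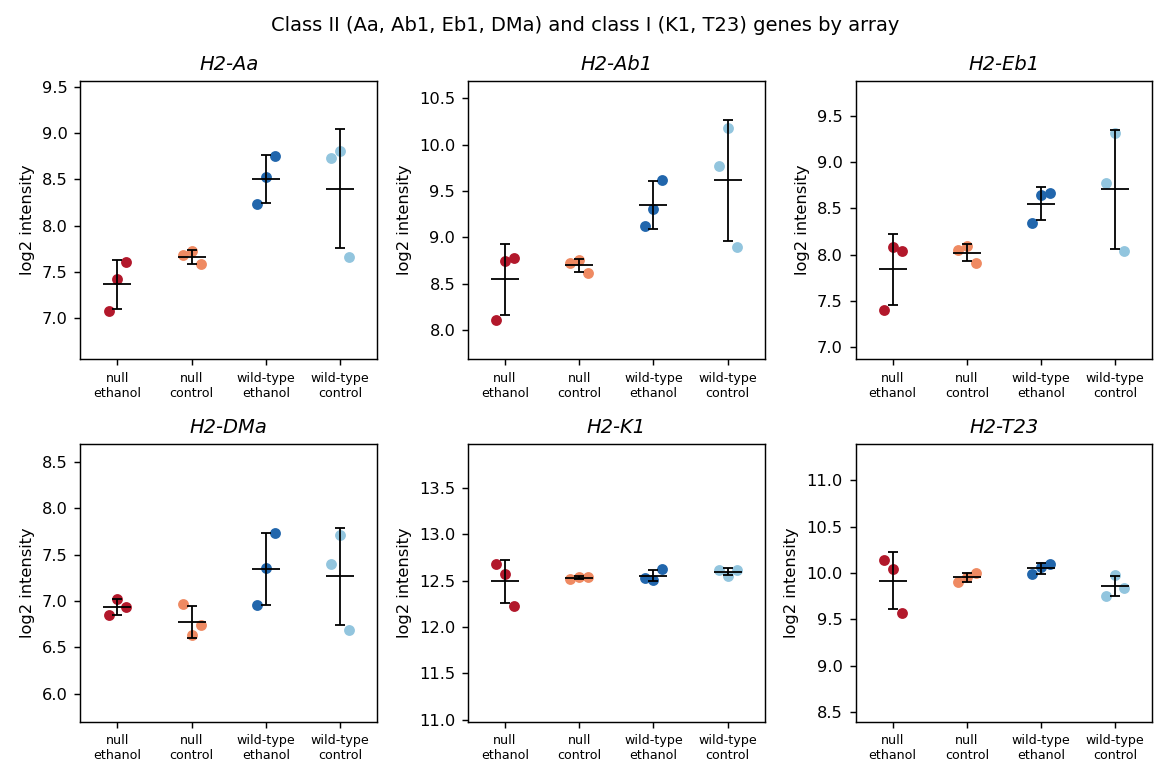
Log2 intensity of 4 class II genes (H2-Aa, H2-Ab1, H2-Eb1 and H2-DMa) and 2 class I genes (H2-K1 and H2-T23) on each of the 12 arrays, with 1 point per array; the wide bar is the group mean and the error bar 1 SD (n = 3), and every panel spans the same number of log2 units. In H2-Ab1 all null arrays sit below all wild-type arrays, in H2-Aa and H2-Eb1 they do so apart from 1 wild-type control array that lies within the null range, and H2-K1 lies between 12.23 and 12.68 on all arrays.

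The other class II genes encode the machinery that loads peptide inside the cell. H2-DMa, a chain of the peptide editor H2-M, read 6.85, 7.02 and 6.93 on the null ethanol arrays and 6.97, 6.63 and 6.74 on the null control arrays, against 6.96, 7.35 and 7.73 on the wild-type ethanol arrays and 7.40, 7.71 and 6.69 on the wild-type control arrays. The genotypes overlapped, and the change of -0.45 ± 0.16 was not called (limma adjusted p = 0.121). Without wild-type control array 3 H2-DMa was called as well, which made 4 genes. The share of all genes called in that fit is not given here. H2-DMb2, a beta chain of the same editor, changed by -0.12, and passed the filter on only 5 arrays, including all 3 wild-type control arrays. H2-Oa and H2-Ob, the chains of H2-O, which restrains the editor, changed by -0.00241 and 0.08. Over the 7 class II genes tested the median change was -0.45, against -0.000471 for all genes tested, and with the 3 dim class II genes included it was -0.18.

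Class I genes with a probe set of their own differed little by genotype. Probe sets shared between class I genes are read apart, further below. That of H2-Q6 and H2-Q8 changed by -0.53 ± 0.12 (limma adjusted p = 0.058). The other shared ones above the filter changed by -0.20 to 0.10. H2-K1, the only classical class I gene with a probe set of its own, read 12.68, 12.57 and 12.23 on the null ethanol arrays and 12.52, 12.54 and 12.54 on the null control arrays, against 12.53, 12.51 and 12.62 on the wild-type ethanol arrays and 12.61, 12.55 and 12.62 on the wild-type control arrays. The 2 genotypes overlapped over both diets, with null ethanol array 3 the lowest of the 12. Its change was -0.06 ± 0.07 (95% confidence interval -0.22 to 0.10, limma adjusted p = 0.691), an interval that leaves out a fall of the size seen in H2-Aa, H2-Ab1 or H2-Eb1. Of the 9 class I genes tested, 0 were called in limma, against 7.0% of all genes. With 9 genes, 0 calls cannot be told apart from that share. An unadjusted p under 0.05 was reached by 0 of the 9, against 21.4% of all genes. Within the control diet it was reached by 1 (22.1% of all genes) and within the ethanol diet by 2 (16.2%). The changes over both diets ran from -0.21 to 0.19, with a median of -0.07.

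Within class I, the 4 genes of the Q region had the lower changes. H2-Q1 changed by -0.21, H2-Q5 by -0.20, H2-Q4 by -0.16 and H2-Q10 by -0.19, and none was called. H2-Q10, whose product is secreted by hepatocytes, has a second, dimmer probe set that changed by 0.19 ± 0.08, so its probe sets disagreed in sign. The second, dimmer probe set of H2-Q4 changed by -0.17 ± 0.06 over both diets. On the control diet it changed by -0.31 ± 0.09, against -0.08 for the probe set used. On the ethanol diet it changed by -0.03, against -0.23. The second probe set of H2-Q5 changed by -0.11 over both diets. H2-T23, whose product Qa-1 is a ligand of NK cell receptors, changed by -0.02. H2-T24 changed by -0.00720, H2-M3, which presents formylated peptides, by -0.07, and H2-M5 by 0.19. The pseudogene H2-K2 changed by 0.01 and H2-Ke6 by 0.13.

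**Figure D2:**
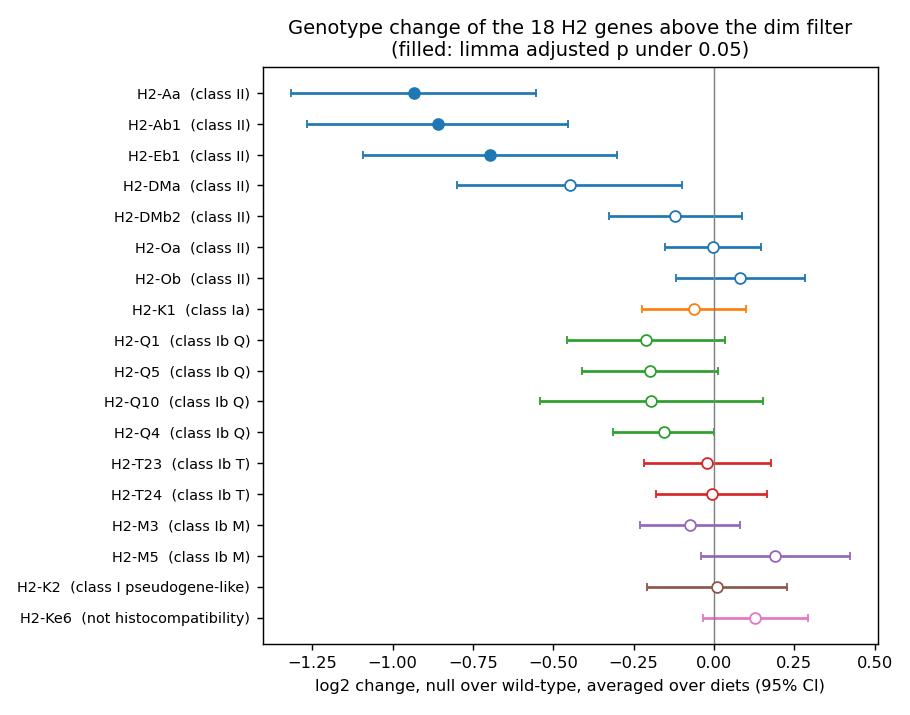
Log2 change (null over wild-type, averaged over diets, in log2 units) of the 18 H2 genes above the filter with its 95% confidence interval, ordered by class; filled points have a limma adjusted p under 0.05. The 3 filled points are class II genes at -0.93, -0.86 and -0.70, and the 9 class I genes lie between -0.21 and 0.19.

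The class I median minus the class II median was 0.37 log2 units, a description with no test that moved to 0.17 with no filter on dim genes and to 0.62 with the stricter filter. For the classical genes the difference itself was tested as log2 of the class II gene minus log2 of H2-K1 on each array, in an exact two-sided permutation test that exchanged genotypes within each diet. This test was chosen after the values were seen. It used the same arrays and the 3 class II genes already called, set against an H2-K1 that barely changed. It therefore restates those calls and adds no independent support for a difference between the classes. H2-Ab1 minus H2-K1 was lower in null livers by 0.80 log2 units, with the smallest p the 400 permutations can give (exact p = 0.005). H2-Aa minus H2-K1 was lower by 0.87 (exact p = 0.02) and H2-Eb1 minus H2-K1 by 0.64 (exact p = 0.025). Over these 3 comparisons the adjusted exact permutation p-values were 0.015, 0.025 and 0.025.

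On the control diet the null group was lower than the wild-type group in the same 3 class II genes, but 0 of the 18 H2 genes were called in limma, against 5.10% of all genes. An unadjusted p under 0.05 was reached by 5 of 18, against 22.1% of all genes. H2-Ab1 changed by -0.92 ± 0.27 (limma adjusted p = 0.0647), and the null and wild-type control arrays did not overlap, which held in the lower direction for 10.0% of all genes. H2-Aa changed by -0.73 ± 0.25 (limma adjusted p = 0.105) and H2-Eb1 by -0.69 ± 0.26 (limma adjusted p = 0.141). In both, wild-type control array 3 lay on a level with the null arrays. Without that array 3 genes were called: H2-Ab1 at -1.27, H2-Aa at -1.10 and H2-Eb1 at -1.02, with limma adjusted p of 0.00806, 0.00462 and 0.0267. Calls over all genes also varied between fits, and whether this gain is particular to H2 genes was not tested.

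H2-DMb2 was the fourth by p on the control diet. It read 5.47, 5.38 and 5.84 on the null ethanol arrays and 5.53, 5.56 and 5.63 on the null control arrays, against 5.34, 5.42 and 5.73 on the wild-type ethanol arrays and 5.89, 6.03 and 5.72 on the wild-type control arrays. The wild-type control arrays lay above the null control arrays by a narrow margin, with a change of -0.31 ± 0.14 (limma adjusted p = 0.204). H2-DMb2 passed the filter on only 5 arrays, all 3 wild-type control arrays among them. Its lower null values here are therefore tied to the filter. Class I genes on the control diet had a median change of -0.08, and H2-K1 changed by -0.06. Its null control arrays (12.52 to 12.54) lay just below its wild-type control arrays (12.55 to 12.62). Such a lack of overlap was seen for 10.0% of all genes.

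On the ethanol diet 1 of the 18 H2 genes was called, against 1.79% of all genes: H2-Aa fell in null livers by 1.13 ± 0.25 on the log2 scale (limma adjusted p = 0.0373). The H2-Aa arrays of the 2 ethanol groups did not overlap, at 7.08 to 7.60 in null and 8.23 to 8.76 in wild-type livers. That held in the lower direction for 14.4% of all genes. An unadjusted p under 0.05 was reached by 5 of 18, against 16.2% of all genes. The call was lost without wild-type ethanol array 2 or 3, null ethanol array 1 or 2, or null control array 2 (limma adjusted p of 0.0537 to 0.158), and without wild-type control array 3 H2-Ab1 joined H2-Aa. The H2-Aa call was also lost with no filter on dim genes, with trended robust eBayes and with a replicate block (limma adjusted p of 0.0656, 0.057 and 0.0615). Array weights called H2-Aa, H2-Ab1 and H2-Q5. They also called more of all genes on this diet, so the added calls are not read as particular to H2 genes. H2-Ab1 changed by -0.80 ± 0.27 and H2-Eb1 by -0.71 ± 0.26, with limma adjusted p of 0.155 and 0.195, and both also had ethanol groups that did not overlap.

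H2-Q5, counted with class I and listed by RefSeq as a transcribed pseudogene, came second by p on the ethanol diet. It read 6.12, 6.26 and 6.08 on the null ethanol arrays and 6.54, 6.54 and 6.75 on the null control arrays, against 6.54, 6.80 and 6.49 on the wild-type ethanol arrays and 6.44, 6.88 and 6.33 on the wild-type control arrays. The 3 null ethanol arrays were the lowest of the 12. Its change on the ethanol diet was -0.46 ± 0.14 (limma adjusted p = 0.123), and its second probe set changed by -0.29. Arrays that do not overlap in the lower direction were seen for 14.4% of all genes on this diet. H2-Aa was thus called on one diet and not on the other, but the difference between the diets was -0.40 ± 0.35 (limma adjusted p = 0.601). For H2-Ab1 that difference was 0.11 ± 0.38 and for H2-Eb1 -0.02 ± 0.37, so these data do not separate the genotype change on the 2 diets.

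The diet comparison asked which H2 transcripts ethanol feeding moved. Over both genotypes 0 of the 18 H2 genes were called in limma, against 0.0143% of all genes, and 1 of 18 had an unadjusted p under 0.05, against 12.1% of all genes. That gene was H2-Q1, a class Ib gene of the Q region, which lay lower on the ethanol diet in both genotypes. Its log2 intensity was 6.73, 6.97 and 6.79 on the null ethanol arrays and 7.01, 6.79 and 6.89 on the wild-type ethanol arrays, against 7.03, 7.55 and 7.56 on the null control arrays and 8.03, 7.72 and 7.44 on the wild-type control arrays. All 6 ethanol arrays lay below all 6 control arrays, which held in that direction for 0.456% of all genes. The change was -0.69 ± 0.11 (95% confidence interval -0.94 to -0.45) and missed the threshold (limma adjusted p = 0.0638). H2-Q1 was called without wild-type control array 2 (-0.69, limma adjusted p = 0.0293) or without null control array 1 (-0.78, limma adjusted p = 0.0401), and with array weights (limma adjusted p = 0.0184). Array weights also called more of all genes in this comparison.

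**Figure D3:**
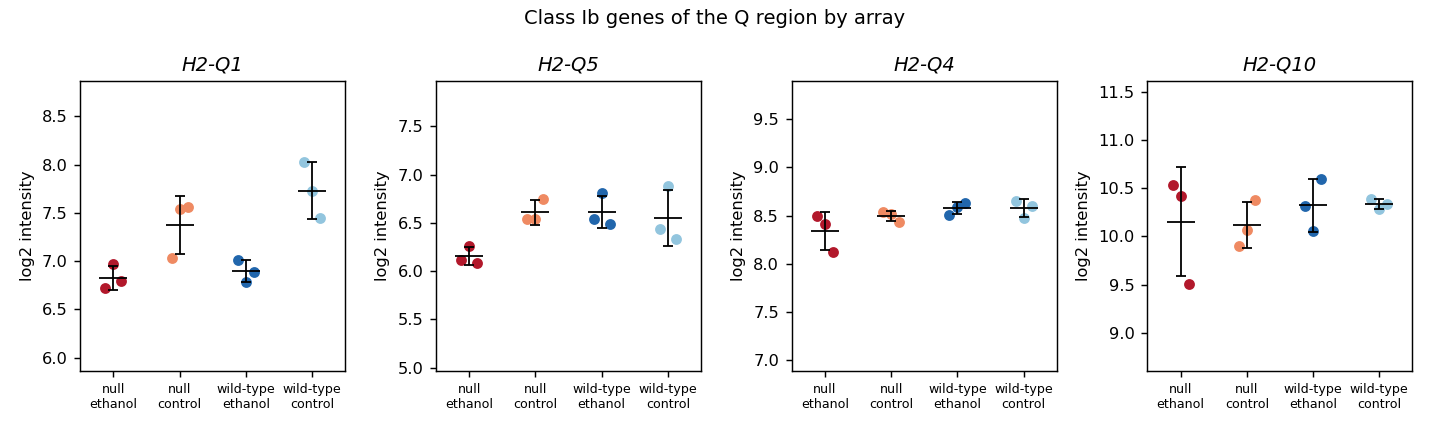
Log2 intensity of the 4 Q-region genes H2-Q1, H2-Q5, H2-Q4 and H2-Q10 on each of the 12 arrays, with 1 point per array; the wide bar is the group mean and the error bar 1 SD (n = 3), and every panel spans the same number of log2 units. H2-Q1 is lower in both ethanol groups (6.73 to 7.01) than in both control groups (7.03 to 8.03), and H2-Q5 is lowest in the null ethanol group (6.08 to 6.26).

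Within each genotype the H2-Q1 change was -0.55 ± 0.16 in null livers and -0.83 ± 0.16 in wild-type livers. Neither was called (limma adjusted p = 0.293 in null and 0.0609 in wild-type livers), and the interaction was 0.29 ± 0.23. In null livers 0 of 18 H2 genes were called in limma, against 0.00713% of all genes, and 2 had an unadjusted p under 0.05, H2-Q1 and H2-Q5, against 12.2% of all genes. H2-Q5 changed by -0.45 ± 0.14 in null livers (limma adjusted p = 0.293) and by 0.06 in wild-type livers. Its interaction was -0.52 ± 0.20 (limma adjusted p = 0.263).

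H2-Q4, whose product is known as Qb-1, and H2-Oa came next in null livers. H2-Q4 read 8.49, 8.41 and 8.12 on the null ethanol arrays against 8.53, 8.52 and 8.44 on the null control arrays, and 8.51, 8.59 and 8.63 on the wild-type ethanol arrays against 8.65, 8.47 and 8.60 on the wild-type control arrays. Its diet groups overlapped in both genotypes. H2-Oa read 5.85, 5.87 and 5.86 on the null ethanol arrays against 5.64, 5.91 and 5.65 on the null control arrays, and 5.79, 5.83 and 5.71 on the wild-type ethanol arrays against 5.68, 5.95 and 5.84 on the wild-type control arrays. These values lay close to the filter, and the change of 0.13 ± 0.10 in null livers was within the spread of the arrays.

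In wild-type livers 0 of 18 H2 genes were called in limma for ethanol, against 0.0927% of all genes, and 3 had an unadjusted p under 0.05, against 14.5% of all genes. H2-DMb2 changed by -0.38 ± 0.14 (limma adjusted p = 0.232) and H2-Ob by -0.30 ± 0.13 (limma adjusted p = 0.316). For H2-DMb2, which passed the filter largely through the wild-type control arrays, this fall is likewise tied to the filter. H2-Ob read 5.95, 6.02 and 6.30 on the null ethanol arrays against 5.89, 6.28 and 5.92 on the null control arrays, and 5.85, 5.98 and 5.65 on the wild-type ethanol arrays against 6.09, 6.06 and 6.24 on the wild-type control arrays. Its diet groups did not overlap in wild-type livers, which held in that direction for 8.61% of all genes, and overlapped in null livers. H2-T24 read 6.41, 6.53 and 6.32 on the null ethanol arrays against 6.41, 6.36 and 6.49 on the null control arrays, and 6.33, 6.13 and 6.47 on the wild-type ethanol arrays against 6.57, 6.70 and 6.36 on the wild-type control arrays. H2-T24 overlapped in both genotypes. In the interaction 0 of 18 H2 genes were called in limma, against 0.0143% of all genes, with 1 unadjusted p under 0.05 (H2-Q5), against 15.0% of all genes. H2-DMb2 and H2-Ob had interactions of 0.37 ± 0.19 and 0.36 ± 0.18.

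The classical class II genes changed with ethanol by -0.30 ± 0.25 (H2-Aa), -0.15 ± 0.27 (H2-Ab1) and -0.18 ± 0.26 (H2-Eb1) in null livers. In wild-type livers they changed by 0.11 ± 0.25, -0.26 ± 0.27 and -0.16 ± 0.26. Each change was smaller than 1.5 standard errors. H2-K1 changed by -0.04 in both genotypes.

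**Figure D4:**
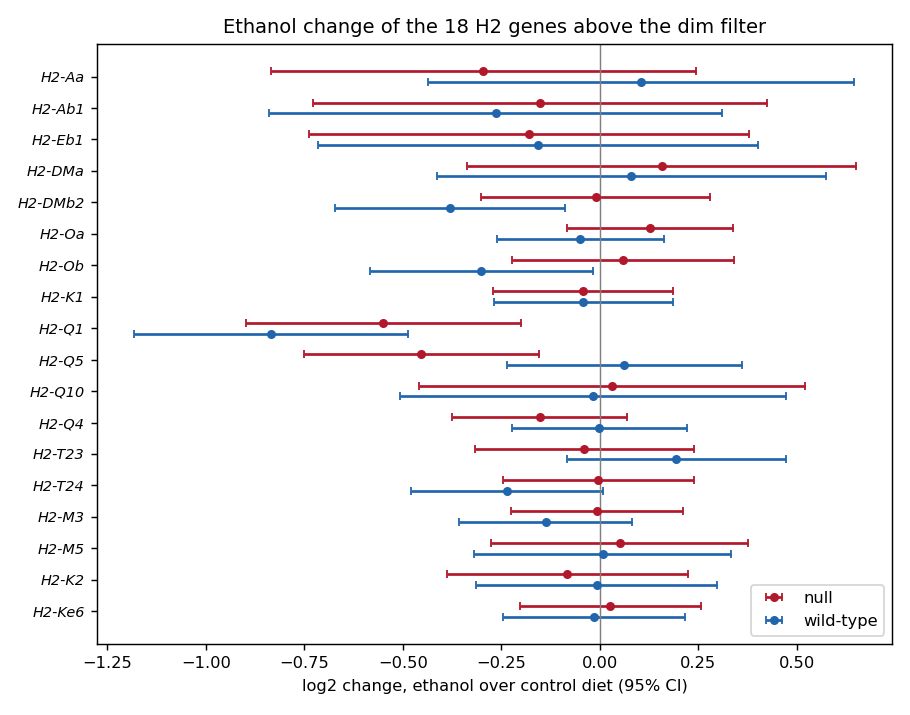
Log2 change (ethanol over control diet, in log2 units) of the 18 H2 genes above the filter in null and wild-type livers, with 95% confidence intervals. H2-Q1 lies at -0.55 in null and -0.83 in wild-type livers with intervals below 0, and H2-Q5 lies at -0.45 in null and 0.06 in wild-type livers.

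H2 genes whose probe sets name several genes were read apart from the 34. The classical class I gene H2-D1 shares its probe set with H2-Q2. That probe set read 6.21, 6.45 and 6.36 on the null ethanol arrays and 6.19, 6.83 and 6.33 on the null control arrays, against 6.41, 6.49 and 6.56 on the wild-type ethanol arrays and 6.39, 6.51 and 6.45 on the wild-type control arrays, a genotype change of -0.07 ± 0.11. Of 7 such probe sets, 5 passed the filter and 0 were called in limma by genotype or by ethanol over both groups, against 1.65% and 0% of all probe sets naming several genes or none. The probe set shared by H2-Q6 and H2-Q8 changed by -0.53 ± 0.12 with genotype (limma adjusted p = 0.058) and by -0.47 ± 0.12 with ethanol (limma adjusted p = 0.204). It read 8.43 to 9.07 on the null ethanol arrays, 9.06 to 9.24 on the null control arrays, 9.13 to 9.23 on the wild-type ethanol arrays and 9.46 to 9.91 on the wild-type control arrays. The signal of near-identical Q genes cannot be divided among them on this array.

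Genes that serve the 2 classes were read from lists. For class I, peptides are cut by the immunoproteasome, carried by TAP and loaded beside B2m, the light chain. Of 16 such genes tested, 1 fell with genotype and 0 rose, against 3.98% of all genes called lower: Pdia3, a protein disulfide isomerase of the loading complex, by 0.27 on the log2 scale (limma adjusted p = 0.0311). B2m changed by -0.09 and Nlrc5, the class I coactivator, by -0.11, and the list median was -0.10. Tap1 changed by -0.12, and Psmb8 and Psmb9, subunits of the immunoproteasome, by -0.07 and -0.10.

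For class II, 4 of 13 genes tested fell with genotype and 0 rose, against the same 3.98%, with a list median of -0.13. Ctss, the protease that trims the invariant chain, changed by -0.76 ± 0.12 (limma adjusted p = 0.0021), and Ifi30, a lysosomal thiol reductase, by -0.65 ± 0.11 (limma adjusted p = 0.004). In both genes all 6 null arrays lay below all 6 wild-type arrays, which held for 2.11% of all genes. The ranges were 7.95 to 8.55 against 8.86 to 9.61 for Ctss and 7.71 to 8.27 against 8.45 to 8.91 for Ifi30. Lgmn, a lysosomal endopeptidase, changed by -0.36 (limma adjusted p = 0.0136), and Nfyb, an NF-Y subunit of general use beyond class II genes, by -0.59 (limma adjusted p = 0.0085). Ciita, the class II coactivator, changed by -0.20 ± 0.08 (limma adjusted p = 0.147), with null arrays at 6.24 to 6.56 and wild-type arrays at 6.46 to 6.75. The invariant chain gene Cd74 was not analysed here. Ctss, Ifi30 and Lgmn are also known as lysosomal enzymes of macrophages.

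Macrophage and Kupffer cell markers moved with genotype as well. Of the 12, all above the filter, 11 fell in null livers and 0 rose, with a median change of -0.52, while 3.98% of all genes tested were called lower. Adgre1, which encodes F4/80, changed by -0.85, Cd5l, a secreted Kupffer cell protein, by -0.94, and Marco, a scavenger receptor, by -0.73. The summed intensity of the list ran from 3570 to 6578 on null arrays and from 5633 to 9079 on wild-type arrays, and wild-type control array 3, low in class II, had the lowest wild-type sum. The part of these markers in the class II result was not tested. In RNA of a whole organ, fewer cells of a type and less RNA per cell cannot be told apart.

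With ethanol over both genotypes all 12 macrophage and Kupffer cell markers had positive changes, with a median of 0.29. Positive changes were seen for 6067 of the 14031 genes tested. In limma 0 of the markers were called, against 0.0143% of all genes. In that comparison the 7 class II genes had a median change of -0.12, with 5 negative and 2 positive changes and 0 called. Whether class II genes follow these markers was not tested.

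Markers of the other cell types of liver were read in the same way. Over all genes tested 7.0% were called by genotype, so 0 calls among 5 or 6 markers are near that share. Of 6 dendritic cell markers tested 0 were called, Itgax, the gene of CD11c, changed by -0.00062 and Flt3 was dim. Cd209a, a lectin gene that makes up most of the list's summed intensity, changed by 0.44 ± 0.16 over both diets (limma adjusted p = 0.121) and by 0.78 on the control diet (limma adjusted p = 0.0621). The list's summed intensity was 1403 to 2015 on null and 849 to 1714 on wild-type arrays. Of 5 B cell markers 0 were called, Cd79a changed by 0.02, Ms4a1 (CD20) was dim, and the summed intensity was 649 to 897 on null and 647 to 916 on wild-type arrays. Of 5 T and NK cell markers 0 were called, with Cd3e at -0.14 and Cd3g, Ncr1 and Klrb1c dim, and sums of 274 to 302 on null and 263 to 342 on wild-type arrays. Of 8 sinusoidal endothelial cell markers 2 fell, against 3.98% of all genes called lower, Pecam1 by 0.37 and Tek by 0.47 on the log2 scale. Of the 8 changes 7 were negative, with a median of -0.33. Their summed intensity was 3887 to 6888 on null and 5400 to 6408 on wild-type arrays. Of 6 hepatocyte markers 0 were called, and Alb changed by 0.02.

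**Figure D5:**
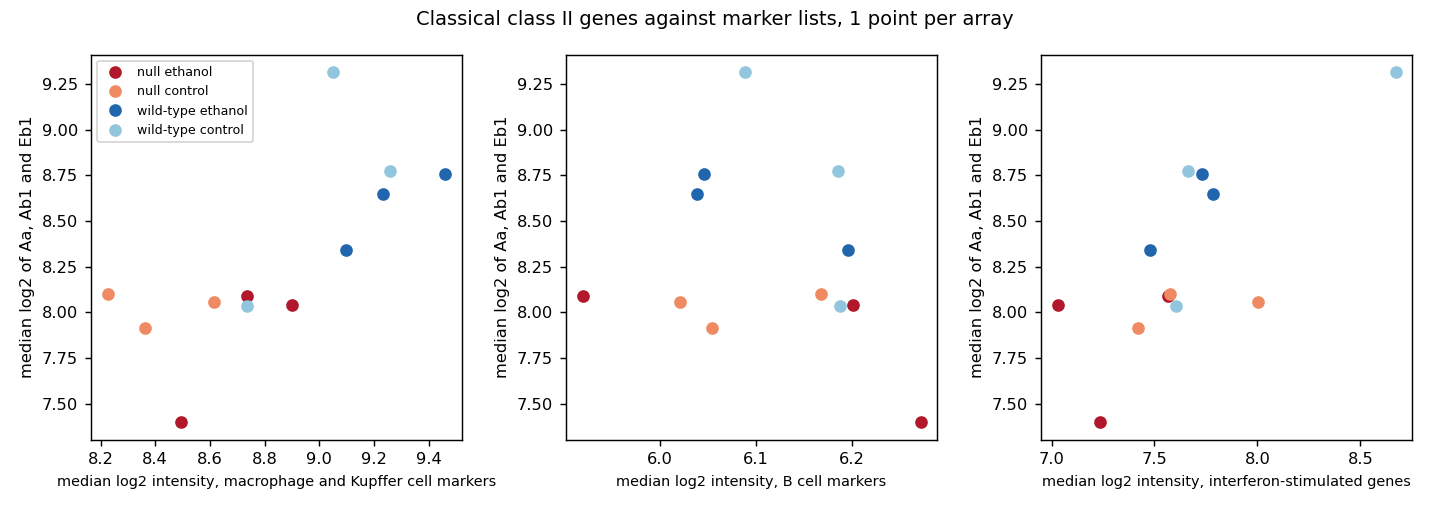
Median log2 intensity of H2-Aa, H2-Ab1 and H2-Eb1 on each array (vertical axis) against the median log2 intensity of macrophage and Kupffer cell markers, B cell markers and interferon-stimulated genes (horizontal axes), with 1 point per array and colours for the 4 groups. Null arrays lie low on both axes in the macrophage panel, with list medians of 8.23 to 8.90 against 8.73 to 9.46 on wild-type arrays; B cell list medians are 5.92 to 6.27 on null and 6.04 to 6.20 on wild-type arrays, and wild-type control array 2 stands at 8.67 in the interferon panel.

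Interferon-stimulated genes were read because interferon gamma raises both classes. The list is not restricted to genes induced by interferon gamma, so its median does not read out that interferon alone. Of 22 tested 0 were called by genotype in limma, against 7.0% of all genes. Of the 22 changes 17 were negative, with a median of -0.24. Cxcl9, a chemokine induced by interferon gamma, changed by -0.81 ± 0.31 (limma adjusted p = 0.15). Wild-type control array 2, with the highest list median of 8.67, also had the highest values of H2-Aa, H2-Ab1 and H2-Eb1. Without it H2-Aa changed by -0.83, H2-Ab1 by -0.72 and H2-Eb1 by -0.55 with genotype, and all 3 were still called (limma adjusted p of 0.015, 0.0247 and 0.0491). The part of interferon-stimulated genes in the class II result was not tested.

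Ppard itself lies on chromosome 17, so the other genes along the chromosome were counted by genotype. In the RefSeq order 200 genes stand between Ppard and the first H2 gene, and 1 of the 96 tested was called (1.04%), Abcg1, a cholesterol exporter. Of the genes that stand among the H2 genes but are no members, 6 of 104 tested were called (5.77%), with Neu1, Snord52 and Gpank1 higher and Hspa1b, Aif1 and Znrd1as lower. Over all genes tested 7.0% were called. Among the H2 genes in that order, H2-Ab1, H2-Aa and H2-Eb1 are direct neighbours, between H2-Ob, with a change of 0.08, and the dim H2-Eb2.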

How the data were processed

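Total RNA of 12 liver samples was amplified, labelled and hybridised to 1 array per sample, per the labels' protocols. The deposited values are intensities per probe set, which the authors had normalised with RMA, per the submitters' processing notes; its version and settings are in none of the sources used here. The deposited intensities ran from 1.816 to 20156, so log2 was taken here, and no column was left out. Of 41345 probe sets, 23521 named 1 gene, 1814 several and the rest none in the array annotation given. Those naming several genes or none were fitted apart.

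All 12 arrays entered 1 linear model of group means in limma 3.58.1 (R 4.3.3; lmFit, contrasts.fit and eBayes, with 8 residual and 4.95 prior degrees of freedom) in 7 contrasts, and Benjamini-Hochberg adjustment ran over the 14031 genes within each. The median standard error over genes was 0.116 for a pair of groups and 0.082 for an average, and the number of arrays limits the precision. Samples were grouped by their labels. The fit was tested on simulated data.

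The members and lists were chosen with earlier results of these data known. Named with values on every array were H2 genes called in any contrast, H2-K1, H2-D1, H2-Aa, H2-Ab1 and H2-Eb1, and the 4 smallest p-values where none was called; other members have changes only. Of the lists, called genes, the class regulators and each cell type's first measured marker were named; H2-DMa, H2-M10.1 and the further list genes were named after their values were seen. Alternatives were no filter and a stricter one, quantile normalisation, centring, the mean of a gene's probe sets, trended robust eBayes, array weights, 2-group fits, a replicate block and leaving out each array. RefSeq's GRCm38.p6 tables gave order and sequences. Whether replicate numbers pair the arrays was checked: of 18 correlations between same-numbered arrays, which ran from -0.15 to 0.19, 2 were over 0.1, so they were not treated as pairs.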

Additional observations from a re-analysis of the deposited data

How the results depend on the processing

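H2-Aa and H2-Ab1 stayed lower and called by genotype over both diets in all 20 alternatives run (limma adjusted p of 8.86e-05 to 0.0225 and of 0.00101 to 0.0455), with 12 of them leaving out 1 array. H2-Eb1 lost the call in 9 of the 20, among them no filter (0.0683) and trended robust eBayes (0.0589). Leaving out 1 array gave 2 to 4 called H2 genes by genotype over both diets, 0 to 3 on the control diet and 0 to 2 on the ethanol diet. For ethanol it gave 0 to 1 over both genotypes, 0 in null and 0 to 1 in wild-type livers, and 0 in the interaction. The shares of all genes called in these fits are not given here, so these counts are not read as particular to H2 genes. On the ethanol diet the single genotype call became 0 with no filter, 0 with trended robust eBayes and 0 with a replicate block (H2-Aa adjusted p = 0.0615), and 3 with array weights (H2-Aa, H2-Ab1 and H2-Q5). The block left the 3 calls over both diets in place. Array weights called 1 H2 gene, H2-Q1, for ethanol over both genotypes and 1 in wild-type livers. With no filter 1 gene, H2-M10.1, was called on the control diet, 1 for ethanol in wild-type livers and 1 in the interaction. The class I minus class II median difference ran from 0.17 with no filter to 0.62 with the stricter filter, and from 0.25 to 0.48 with 1 array left out. H2-K1 ran from -0.11 to 0.0038 by genotype with 1 array left out, turning positive without null ethanol replicate 3. The causes were not tested. Over all genes, calls by genotype on the control diet numbered 715, against 393 with no filter, 239 with only the 2 groups and 1631 with array weights; calls by genotype over both diets numbered 982 and 1863 with array weights, and on the ethanol diet 251 and 829. For ethanol in wild-type livers they numbered 13, against 7 with no filter, 23 with the stricter filter, 24 with trended robust eBayes and 832 with array weights. Array weights also gave 133 in place of 2 for ethanol over both genotypes, 9 in place of 1 in null livers and 38 in place of 2 in the interaction. The number of arrays limits what small changes can be seen.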

Other observations

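H2-M10.1, a class Ib gene of the M region known from the vomeronasal organ, was dim and entered no test above, with 2 of 12 arrays over the filter. It read 5.32, 5.18 and 5.38 on the null ethanol arrays and 5.0, 5.0 and 4.95 on the null control arrays, against 4.82, 4.90 and 5.0 on the wild-type ethanol arrays and 5.77, 5.64 and 5.76 on the wild-type control arrays. The 3 wild-type control arrays lay above the other 9. In a fit without the filter over 22180 genes its change with ethanol was -0.81 in wild-type livers (limma adjusted p = 0.00731) and 0.31 in null livers (limma adjusted p = 0.423), and the interaction was 1.12 (limma adjusted p = 0.0241). This gene was named after its values were seen.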
